A study of Mus musculus with 6 samples.

Results

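The genes that activate, receive and answer glucocorticoid hormone were followed in differentiating C2C12 cells after knockdown of the noncoding RNA H19. The set held 10 genes: the activating enzyme Hsd11b1, the glucocorticoid receptor gene Nr3c1, and 8 genes known to be induced by glucocorticoids (Fkbp5, Tsc22d3, Per1, Sgk1, Zbtb16, Klf9, Mt1 and Mt2). They were found by gene symbol in the platform annotation, each with 1 probe set of its own, and made up 10 of 19938 genes with 1 symbol on the array. Hsd11b1 was the starting point because it had been among the lowest differences of this same comparison, and the other genes were added for their known roles with results of these arrays in view. The set was thus partly selected on measured values, the Hsd11b1 levels of the 2 groups compared below. The 10 genes entered the fit over all genes like any other, but their values are given as a description, and what that fit called among them supports nothing.

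C2C12 is an established mouse skeletal myoblast line that fuses into myotubes when serum is lowered. Cells were grown in 10% fetal bovine serum and differentiated in 2% horse serum. On day 1 of differentiation 3 samples received an siRNA against mouse H19 (simH19) and 3 received a control siRNA (siCon), and total RNA was taken 40 h later. The labels describe the cells of both groups as wild type and name 1 siRNA for H19, no added glucocorticoid and no removal of steroids from the serum. Knockdown lowers a transcript without removing its gene. Nothing states that the triplicates were separate cultures, so the spread between arrays may be technical.

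Glucocorticoids act through a receptor that waits in the cytoplasm with chaperones of the Hsp90 machinery. Hormone binding moves the receptor into the nucleus, where it binds glucocorticoid response elements and switches genes on. Inside a cell the supply of active hormone depends partly on Hsd11b1, a reductase of the endoplasmic reticulum that regenerates active steroid from its inert keto form, while Hsd11b2 catalyses the opposite step. In skeletal muscle, glucocorticoids are known for lowering protein synthesis and promoting protein breakdown.

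The proximal promoters of the set differ in which response elements they spell out, and 4 of them are shown because they carry, or lack, the letters through which hormone or metal acts. RefSeq windows (GRCm38.p6) running from 250 bases before to 50 bases after a transcription start were searched on both strands. There were 16 windows for 8 of the genes, since several genes have more than 1 start, and windows of Nr3c1 and Zbtb16 were not used here. Capitals mark a glucocorticoid response element, in full (AGAACA, any 3 bases and TGTTCT) or relaxed (GNACA, any 3 bases and TGTNC, which the full word contains). They also mark an E-box (CACGTG) and, in Mt1 and Mt2 only, a loose form of the metal response element core (TGCNCNC). The loose form allows any base at each N, so a match need not be a metal response element.
Hsd11b1, chr1:193242311-193242610, minus strand: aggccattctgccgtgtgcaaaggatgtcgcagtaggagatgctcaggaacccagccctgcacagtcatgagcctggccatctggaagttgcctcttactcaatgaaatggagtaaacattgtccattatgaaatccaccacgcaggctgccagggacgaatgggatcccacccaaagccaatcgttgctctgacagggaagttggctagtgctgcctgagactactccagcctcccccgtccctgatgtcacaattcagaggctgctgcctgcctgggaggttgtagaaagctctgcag
Sgk1, chr10:21993640-21993939, plus strand: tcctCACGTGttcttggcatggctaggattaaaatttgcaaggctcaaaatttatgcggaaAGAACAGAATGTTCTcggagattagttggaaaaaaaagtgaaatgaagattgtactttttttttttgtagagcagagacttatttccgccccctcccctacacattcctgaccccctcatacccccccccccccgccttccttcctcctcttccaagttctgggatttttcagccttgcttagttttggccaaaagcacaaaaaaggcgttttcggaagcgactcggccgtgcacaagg
Mt1, chr8:94178839-94179138, plus strand: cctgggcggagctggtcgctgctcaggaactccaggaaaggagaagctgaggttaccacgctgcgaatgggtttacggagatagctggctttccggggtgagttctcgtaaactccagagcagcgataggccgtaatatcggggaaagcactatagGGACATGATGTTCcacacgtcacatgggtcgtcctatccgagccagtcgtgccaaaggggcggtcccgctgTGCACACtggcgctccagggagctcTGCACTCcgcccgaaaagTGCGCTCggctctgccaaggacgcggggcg
Mt2, chr8:94172368-94172667, plus strand: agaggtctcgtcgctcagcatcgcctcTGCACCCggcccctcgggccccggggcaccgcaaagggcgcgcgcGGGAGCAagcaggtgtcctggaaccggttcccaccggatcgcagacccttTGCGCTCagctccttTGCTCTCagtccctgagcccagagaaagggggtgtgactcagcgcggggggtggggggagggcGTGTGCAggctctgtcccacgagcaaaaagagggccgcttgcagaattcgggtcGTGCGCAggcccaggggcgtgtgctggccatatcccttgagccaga

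In the Sgk1 window, 1 of 6 windows of that gene, the full glucocorticoid response element begins at position -189 from the start, and an E-box lies near the 5′ end of the window. The full word occurred in 3 of 32851 promoter windows (0.00913%), so this window belongs to a very small group. The relaxed word occurred in 0.475% of all windows, and among the 16 windows it was found in that of Sgk1 and in that of Mt1, where it begins at position -94. Mt2 held 6 matches to the loose metal response word, a number reached by 0.225% of windows, and Mt1 held 3. At least 1 such match stood in 51.0% of all windows, the Hsd11b1 window among them, where it is left in lower case. An E-box, the element bound by the clock proteins, stood in 7.15% of all windows and in 1 window each of Fkbp5, Per1 and Sgk1. The Hsd11b1 window held neither glucocorticoid word. These matches describe the letters of the windows, not binding in these cells, and elements outside them were not searched.

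Expression is given as a log2 value per probe set, and every difference below is H19 siRNA minus control siRNA on that scale, with the moderated standard error (SE) and 95% interval of limma. The arrays resembled each other closely, with medians from 6.73 to 6.78, and the lowest array weight, 0.41, was that of the second H19 siRNA array. The knockdown was followed on a probe set annotated with both Mir675, which lies inside H19, and Supt6, since no probe set carries the symbol H19. It read 10.38, 10.28 and 10.37 with H19 siRNA and 12.21, 12.22 and 12.27 with control siRNA, which is 26.9% of the control level. Of 21559 units tested, 43 passed an adjusted p of 0.05 in limma (0.199%), 16 of them lower (0.0742%) and 27 higher (0.125%). The 3 arrays of one group all lay beyond the 3 of the other for 17.6% of units, an unadjusted p was under 0.05 for 10.9%, and the median difference over all units was 0.0137. C2C12 identity was checked on 12 skeletal muscle markers, whose mean over the list was 11.21 to 11.25 on the H19 siRNA arrays and 11.10 to 11.11 on the control arrays. This list moved with the groups. Of its 12 genes 1 rose past the threshold, the troponin T gene Tnnt2, and 0 fell. Tnnt2 read 12.71 ± 0.01 with H19 siRNA and 12.45 ± 0.02 with control siRNA (SD, n = 3 each, limma adjusted p = 0.0425). This call was lost after median centring, over all rows, with the replicate block and whenever a single array was left out. With all arrays, 7 of the list were higher and 0 lower at an unadjusted p under 0.05. The groups did not overlap for 8, all higher with H19 siRNA, and the median was 0.12. The cadherin gene Cdh15 and the myogenic regulator gene Myog differed by 0.28 and 0.22 (limma adjusted p = 0.0519 and 0.0779). Of the 12 differences 10 were positive and 2 negative, those of Myf6 (-0.11, SE 0.08) and Myh3 (-0.03, SE 0.04).

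Hsd11b1 was the one gene of the set with a clear shift. It read 9.39, 9.43 and 9.35 with H19 siRNA and 9.88, 9.92 and 9.87 with control siRNA. All 3 H19 siRNA arrays lay well below all 3 control arrays, and the gap between the groups was many times the SD within either (0.04 with H19 siRNA and 0.03 with control siRNA, n = 3 each). The difference was -0.50 (SE 0.04, 95% interval -0.59 to -0.41), so the level with H19 siRNA was 70.6% of control, with an interval from 66.5% to 75.0%. In size it exceeded 99.9% of all units, and 7 units had a more negative difference. Hsd11b1 was chosen for its low difference in this comparison, so its rank and the gap between its groups were partly fixed by that choice. The difference stayed between -0.52 and -0.48 under all 14 processing alternatives, as the plot of those alternatives shows. Alternatives that altered only the variance model, the filter, the rows fitted or the replicate block could not change it. They gave the same -0.50 by construction. The call was less stable, and Hsd11b1 passed the adjusted threshold under 8 of the 14 alternatives. On bulk RNA, fewer cells that express Hsd11b1 and less of its RNA per cell cannot be told apart.

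**Figure D1:**
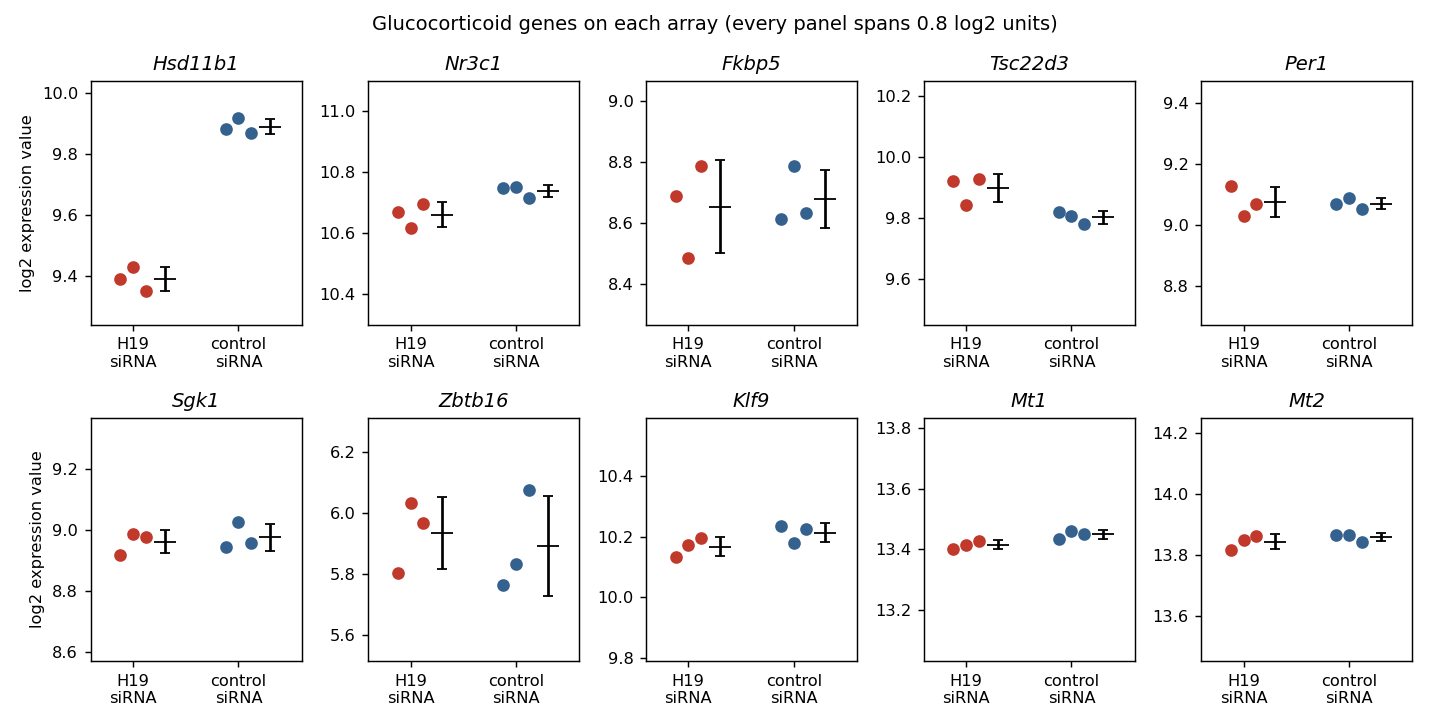
Log2 expression value of each of the 10 genes on every array, H19 siRNA in red at left and control siRNA in blue at right (3 arrays each), with mean ± SD beside the points; every panel spans 0.8 log2 units. Hsd11b1 is the gene whose groups stand widely apart (9.39 against 9.89), whereas the points of Fkbp5, Per1, Sgk1, Zbtb16, Klf9 and Mt2 overlap between the groups.

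Hsd11b1 is also known as a gene of fibroblasts and adipocytes, so the markers of these cells are given beside it. Of 12 fibroblast markers 2 fell past the threshold, Lum and Dcn (limma adjusted p = 0.0227 and 0.0073), and 0 rose. All 6 negative differences of the list were without overlap between the groups and had an unadjusted p under 0.05. Among the 6 positive ones, 2 were without overlap and 1 was under 0.05. Over all units 17.6% did not overlap, 10.9% had an unadjusted p under 0.05 and 0.199% passed the threshold in limma. Like the other lists, this one was written with earlier results of these arrays known. Fbln1, a fibulin gene, differed by -0.16 (limma adjusted p = 0.148). Postn and Col1a2, the 2 positive ones without overlap, differed by 0.09 and 0.04. The collagen genes Col1a1 and Col3a1 differed by 0.01 and -0.10. The mean over the 12 was 9.50 to 9.57 on the H19 siRNA arrays and 9.67 to 9.69 on the control arrays, and none of the 12 was below the 30th percentile of all rows. Of 11 adipocyte markers 0 passed in limma and 0 had an unadjusted p under 0.05 (Cidec had the smallest p, at a difference of 0.10), with a list mean of 6.93 to 6.99 with H19 siRNA and 6.87 to 6.93 with control siRNA. The adipocyte genes Adipoq, Fabp4 and Lep read 5.15, 4.85 and 5.15 with H19 siRNA and 5.06, 4.98 and 4.93 with control siRNA. They were the 3 of the 11 below the 30th percentile of 5.45, and 6 of the 11 lay below the array median of 6.74. Pparg and Dgat2 were the brightest of the list, at 9.82 and 9.31 with H19 siRNA and 9.74 and 9.27 with control siRNA. Of 12 macrophage and leukocyte markers 0 passed in limma, 1 had an unadjusted p under 0.05, and 10 lay below the array median. Their smallest p-values were those of Cd68, C1qb and Tyrobp, at differences of -0.19, 0.18 and 0.12. The part of any of these cells in the Hsd11b1 difference was not tested.

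**Figure D2:**
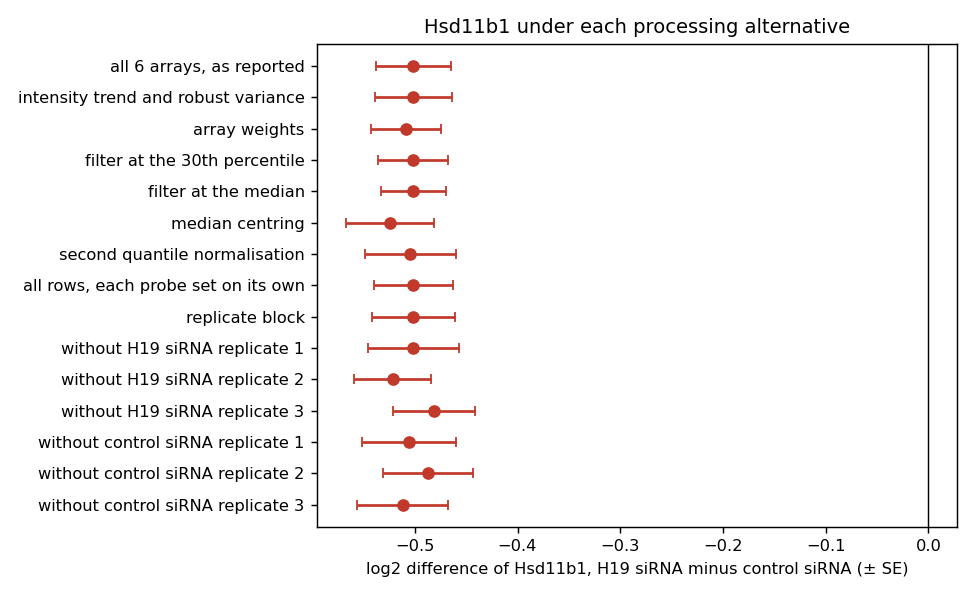
Difference of Hsd11b1 (log2, H19 siRNA minus control siRNA, ± SE) with all 6 arrays and under each of the 14 alternatives. All 15 points lie between -0.52 and -0.48, far from the line at 0. The points for the intensity trend, the filters, all rows and the replicate block repeat the difference over all 6 arrays by construction.

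Nr3c1, the receptor, read slightly lower with H19 siRNA. Its values were 10.67, 10.62 and 10.70 with H19 siRNA and 10.75, 10.75 and 10.72 with control siRNA. The groups did not overlap, but the distance between the nearest arrays was small, and the difference of -0.08 (SE 0.04) had an interval from -0.16 to 0.01. The receptor level with H19 siRNA was thus 94.8% of control, with an interval from 89.3% to 101%.

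Fkbp5 encodes an Hsp90 co-chaperone that dampens the receptor and is itself induced by it. It read 8.69, 8.48 and 8.79 with H19 siRNA and 8.61, 8.79 and 8.63 with control siRNA. The second H19 siRNA array was the lowest of the 6, and the other arrays of the groups interleaved. The difference was -0.02 (SE 0.09, interval -0.23 to 0.18), and without that array it was 0.06.

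Tsc22d3, also called GILZ, encodes a leucine zipper protein that mediates anti-inflammatory actions of glucocorticoids. It read 9.92, 9.84 and 9.93 with H19 siRNA and 9.82, 9.81 and 9.78 with control siRNA. The lowest of the H19 siRNA arrays was still above the highest control array, in the direction opposite to Hsd11b1. The difference was 0.10 (SE 0.04, interval 0.01 to 0.19), or 107% of control.

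Per1, a repressor within the circadian clock with a known glucocorticoid response element, read 9.13, 9.03 and 9.07 with H19 siRNA and 9.07, 9.09 and 9.05 with control siRNA. Its groups overlapped fully, with a difference of 0.01 (SE 0.04, interval -0.08 to 0.10). Sgk1, a kinase that regulates ion channels and transporters, read 8.92, 8.99 and 8.98 with H19 siRNA and 8.94, 9.03 and 8.96 with control siRNA. These groups overlapped as well, and the difference of -0.02 (SE 0.04, interval -0.11 to 0.08) belongs to the gene whose window above spells out the full response element.

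Zbtb16, also called PLZF, encodes a zinc finger repressor that glucocorticoids induce strongly in several human and mouse cell types. It was the dimmest of the set relative to all rows, with 37.7% of rows lower on average. Its SE was the largest of the set, just above that of Fkbp5. Zbtb16 read 5.80, 6.03 and 5.97 with H19 siRNA and 5.76, 5.83 and 6.08 with control siRNA. The difference was 0.04 (SE 0.09, interval -0.18 to 0.27), and how far the signal stood above background is unknown, since no detection call was at hand. Klf9, a Krüppel-like repressor induced early by the hormone, read 10.13, 10.17 and 10.19 with H19 siRNA and 10.24, 10.18 and 10.23 with control siRNA. The lowest control array lay within the H19 siRNA range, and the difference was -0.05 (SE 0.04, interval -0.13 to 0.04).

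Mt1 and Mt2, the metallothioneins, are small cysteine-rich proteins that bind zinc and copper and are induced by metals and by glucocorticoids. Mt1 read 13.40, 13.42 and 13.43 with H19 siRNA and 13.44, 13.46 and 13.45 with control siRNA. Mt2 read 13.82, 13.85 and 13.86 with H19 siRNA and 13.87, 13.87 and 13.84 with control siRNA. Mt1 was lower on every H19 siRNA array by a very small margin, with a difference of -0.03 (SE 0.03, interval -0.11 to 0.04). The arrays of Mt2 overlapped, with a difference of -0.02 (SE 0.03, interval -0.09 to 0.06). Both probe sets were brighter than nearly all others (99.2% and 99.8% of rows were lower), where an array can compress differences, and the genes are close copies, so signal from one copy on the probes of the other cannot be told apart.

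**Figure D3:**
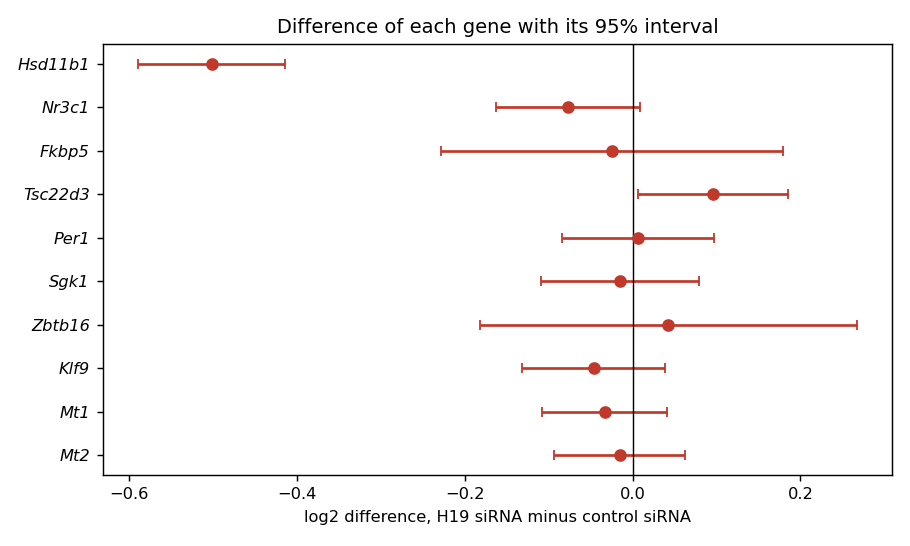
Log2 difference of each gene, H19 siRNA minus control siRNA, with its 95% interval from limma (3 arrays per group). Hsd11b1 at -0.50 lies apart from the other genes, which run from -0.08 for Nr3c1 to 0.10 for Tsc22d3.

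Among the 10 genes 1 passed the adjusted threshold, Hsd11b1, the gene the set was built on, and nothing is read from that count beside the 0.199% of all units. The groups did not overlap for 4 of the 10 genes, against 17.6% of units, with Hsd11b1, Nr3c1 and Mt1 lower and Tsc22d3 higher. The 8 induced genes had differences from -0.05 to 0.10 with a median of -0.02, beside 0.0137 over all units, and 5 of the 8 were negative. Apart from Zbtb16, whose interval ran from 88.2% to 120% of control, the intervals of the induced genes lay between 85.4% and 114% of control. RMA compresses differences near background, so these bounds hold for the deposited values.

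Of 23 measured genes for receptor partners and steroid handling 0 passed in limma, and the median difference was 0.0020. An unadjusted p under 0.05 was found for 1 of the 23, beside 10.9% of all units. Hsd11b2, the opposing enzyme, differed by 0.05 (SE 0.07) and the mineralocorticoid receptor gene Nr3c2, whose protein also binds glucocorticoids, by -0.10 (SE 0.08). H6pd, which supplies the cofactor for the reductase step of Hsd11b1, read 10.12 ± 0.04 with H19 siRNA and 10.05 ± 0.05 with control siRNA (SD, n = 3 each, limma adjusted p = 0.592). The Hsp90 co-chaperone gene Stip1 differed by 0.05 (limma adjusted p = 0.616), and Hsp90aa1 by 0.05. Akr1c14, an aldo-keto reductase that metabolises steroids, was lower on every H19 siRNA array at 8.68 ± 0.16, against 8.92 ± 0.07 with control siRNA (SD, n = 3 each), but did not pass (limma adjusted p = 0.382).

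Of 25 other genes that glucocorticoids induce, 1 fell and 0 rose past the threshold, beside 0.199% of all units. That gene was Saa3, an acute-phase protein, at 9.45 ± 0.03 with H19 siRNA and 10.07 ± 0.04 with control siRNA (SD, n = 3 each, limma adjusted p = 0.0065). Saa3 is induced by cytokines as well, and it was put on the list with its value known. The list was split, with 13 positive and 12 negative differences and a median of 0.0006. The groups did not overlap for 13 of the 25, 6 higher and 7 lower with H19 siRNA, beside 17.6% of all units. An unadjusted p under 0.05 was found for 11 (5 higher, 6 lower), beside 10.9% of all units. Arrdc3, an arrestin-related regulator of receptor trafficking, differed by -0.27 (limma adjusted p = 0.160) and Lcn2, an iron-carrier-binding lipocalin, by -0.22 (limma adjusted p = 0.183). The transglutaminase gene Tgm2 differed by 0.22, the phosphatase gene Dusp1 by -0.09, and the transcription factor gene Cebpd by -0.15.

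Of 18 genes of glucocorticoid-driven muscle wasting and fuel use 0 passed in limma, with a median of 0.01. An unadjusted p under 0.05 was found for 2 of the 18, beside 10.9% of all units. The ubiquitin ligase genes Fbxo32 and Trim63, the usual markers of atrophy, differed by 0.05 (SE 0.03) and -0.04 (SE 0.07). Ddit4, an inhibitor of mTORC1 signalling, read 10.41 ± 0.04 with H19 siRNA and 10.29 ± 0.02 with control siRNA (SD, n = 3 each, limma adjusted p = 0.328). Sesn1, a stress-induced inhibitor of the same pathway, differed by -0.10 (limma adjusted p = 0.406), and the muscle growth inhibitor gene Mstn by 0.14 at a level below the 30th percentile (limma adjusted p = 0.534).

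Inflammatory genes that glucocorticoids repress differed in both directions. Of 25 measured, 1 rose and 1 fell past the threshold, beside 0.199% of all units. The median difference of the list was 0.0068. This list, too, was written with earlier results of these arrays known. An unadjusted p under 0.05 was found for 11 of the 25 (5 higher, 6 lower), beside 10.9% of all units, and 11 did not overlap between the groups (4 higher, 7 lower), beside 17.6%. Cxcl10, a chemokine that is also induced by interferon, rose to 8.45 ± 0.01 with H19 siRNA, against 8.11 ± 0.03 with control siRNA (SD, n = 3 each, limma adjusted p = 0.0246). Tslp, a cytokine of epithelial and stromal cells, fell to 6.88 ± 0.10 with H19 siRNA, against 7.57 ± 0.13 with control siRNA (SD, n = 3 each, limma adjusted p = 0.0392). Cxcl1, a neutrophil chemokine, differed by -0.18 (limma adjusted p = 0.138).

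The metal response list and the clock list put Mt1, Mt2 and Per1 beside genes of their other inputs. Of 16 metal response genes 0 passed in limma, and the median was -0.02. An unadjusted p under 0.05 was found for 3 of the 16, beside 10.9% of all units. Hmox1, haem oxygenase, was higher on every H19 siRNA array at 11.01 ± 0.04, against 10.73 ± 0.01 with control siRNA (SD, n = 3 each), just above the threshold (limma adjusted p = 0.0519). The zinc transporter gene Slc39a14 differed by -0.13 (limma adjusted p = 0.319), Slc30a5 by -0.11 (limma adjusted p = 0.376), and Slc30a1, the zinc exporter gene driven by the metal sensor Mtf1, by -0.06.

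Of 18 clock genes 0 passed in limma and 6 had an unadjusted p under 0.05, 3 in each direction, beside 10.9% of all units, with a median of -0.01. Ciart, a clock repressor, was higher on every H19 siRNA array at 9.77 ± 0.05, against 9.46 ± 0.05 with control siRNA (SD, n = 3 each, limma adjusted p = 0.0750). Nfil3 and Tef, which act against each other on the same promoter element, differed by 0.20 and -0.14 (limma adjusted p = 0.159 and 0.193). Per2, the closest relative of Per1 and itself glucocorticoid-inducible, differed by -0.09 (limma adjusted p = 0.416). Among 21 close relatives of the set 0 passed in limma, 2 had an unadjusted p under 0.05, and the differences ran from -0.11 for Sgk3 to 0.10 for Mt3, with Klf13, a relative of Klf9, also at 0.10 (limma adjusted p = 0.455).

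**Figure D4:**
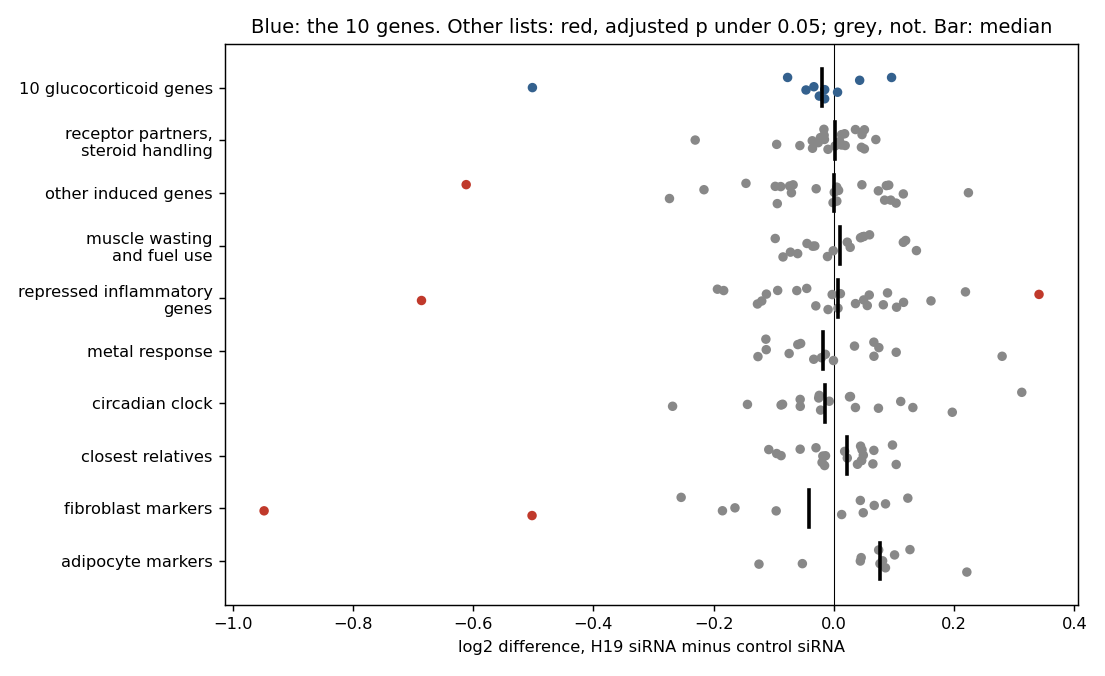
Log2 difference (H19 siRNA minus control siRNA) of each gene in the set of 10 and in 9 related lists; the 10 genes are blue whatever their call, red marks an adjusted p under 0.05 in limma in the other lists, and black bars are medians. Medians of the lists on hormone handling and response lie close to 0, and the fibroblast list holds the lowest value, that of Lum at -0.95. Not every list of the text is drawn. Among all lists of the text, the muscle markers had the median furthest from 0, at 0.12.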

How the data were processed

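RNA of 6 C2C12 samples (3 H19 siRNA, 3 control siRNA) was hybridised to Affymetrix whole-transcript arrays. The deposited log2 values per probe set come from RMA as run by the authors in Affymetrix Expression Console (source: the submitters' processing notes); its version is not given in the sources. RMA normalises between arrays by quantiles and compresses small changes near background. The table holds 35556 probe sets. Platform annotation named 21789 with 1 symbol and 1621 with several; 12146 were not listed and were used in the all-rows alternative alone. The probe set with the highest mean stood for a gene, giving 21559 units. All 10 symbols matched, and 193 of 204 list entries did; 10 of 183 list genes stand in more than one list.

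Groups were compared with limma 3.58.1 (lmFit, then eBayes; R 4.3.3) over all 6 arrays, two-sided, no covariate, Benjamini-Hochberg adjusted p under 0.05. The fit was also run on simulated data, which cannot show whether these arrays were paired or were technical replicates. Alternatives were an intensity trend with robust variance, array weights, filters on dim probe sets at the 30th percentile and the median, median centring, a second quantile normalisation, all rows, the replicate number as a block, and leaving out each array. The genes and lists were chosen with earlier results of these data known. Named in each list were genes past the threshold and the 3 with the smallest p; others named were chosen for their role after their values were seen. The set entered this fit, but its calls are descriptions. The number of arrays limits precision.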

Additional observations from a re-analysis of the deposited data

How the results depend on the processing

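The sign of the difference was kept under every alternative for Hsd11b1, Nr3c1, Tsc22d3, Klf9, Mt1 and Mt2. It changed in 2 or 3 alternatives each for Fkbp5, Per1, Sgk1 and Zbtb16. The intervals of 8 of the 10 genes include 0, all but those of Hsd11b1 and Tsc22d3. The intensity trend, the filters, all rows and the replicate block cannot change a difference of group means. Only the remaining alternatives could change a sign. Per1 was at -0.02 after median centring, which lowered the median of all units to -0.0087. Counts of calls depended on the variance model, the filter and every array; the cause was not tested, but leaving out an array leaves fewer degrees of freedom. The count over all units was 435 under the trended variance model, 70 under array weights, 75 and 214 after filters at the 30th percentile and the median, 11 over all rows, 3 with the replicate block and 1 to 21 without single arrays. Same-numbered arrays did not deviate together (correlations -0.02, -0.13 and -0.14). These values gave no sign of pairing by number, but so few arrays cannot settle whether the samples were paired. Under the block no member and no list gene passed (0). Of the set, 1 gene passed under every other alternative on 6 arrays; without single arrays 0 to 1 passed, and only without the second H19 siRNA array did Hsd11b1 still pass. With an intensity trend 3 other induced genes, 4 repressed genes, 1 metal response gene, 2 clock genes, 7 muscle and 4 fibroblast markers passed. With array weights 1 metal response gene and 2 muscle markers passed. The filter at the 30th percentile gave 1 metal response gene, 1 clock gene and 3 muscle markers, and the filter at the median 1, 3 and 5. A second quantile normalisation gave 1 metal response gene and 2 muscle markers, and median centring 0 muscle markers. Over all rows 0 repressed genes, 0 muscle markers and 1 fibroblast marker passed. Without single arrays the calls ran from 0 to 1 for other induced genes, 0 throughout for repressed genes and muscle markers, and 0 to 2 for fibroblast markers.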

Other observations

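The 5 genes whose profile over the 6 arrays lay nearest to that of Hsd11b1, by root mean square distance after centring each gene on its mean, were Srp19 (0.04 log2 units), Dcn (0.04), Stx12 (0.04), Saa3 (0.06) and Ptn (0.07). Their differences ran from -0.39 for Ptn to -0.61 for Saa3. The profiles follow the contrast between the groups, so the likeness is a description.

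In the RefSeq gene order (GRCm38.p6) the measured genes on either side of Hsd11b1 are Traf3ip3 and G0s2, looked at after the values were seen. G0s2, an inhibitor of triglyceride breakdown, read 8.68 ± 0.11 with H19 siRNA and 8.65 ± 0.04 with control siRNA (SD, n = 3 each), a difference of 0.03 (SE 0.06). Traf3ip3 differed by 0.03 (SE 0.06), at 5.90 with H19 siRNA and 5.86 with control siRNA. Lamb3, a laminin chain gene one place further, differed by 0.06 (SE 0.04). Camk1g, a calmodulin-dependent kinase gene at the next place, was lower on every H19 siRNA array at 8.14 ± 0.09, against 8.43 ± 0.03 with control siRNA (SD, n = 3 each, limma adjusted p = 0.126). On the other side, beyond Traf3ip3, A130010J15Rik differed by -0.01 (SE 0.07) and Utp25, at the place after it, by -0.04 (SE 0.03). The groups overlapped for A130010J15Rik but not for Utp25.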
